A study of Mus musculus with 8 samples.

Results

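The 45 genes described here encode the machinery of motile cilia and genes typical of the cells that bear them. They comprise 3 transcription regulators, 8 dynein heavy chains, 4 smaller dynein chains, 3 proteins that dock or assemble dynein arms, 3 of the axonemal ruler and nexin link, 4 of the radial spoke, 6 of the central pair, 5 tektins and other tubule-binding proteins and 9 further genes of ciliated cells. They were taken by name, with older names allowed, from the probes of a 1-colour mouse array, and 41 of the 45 gave a probe well above background on at least 4 of 8 arrays, among 23596 genes and unnamed probes that did so. The names printed are those of the array files: Dnahc is now Dnah, Wdr16 is now Cfap52, and the probe named Spag6 lies in the gene now called Spag6l.

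A motile cilium is a hair-like extension of the cell surface built on an axoneme, a ring of microtubule doublets around a central pair. Outer and inner dynein arms slide neighbouring doublets, nexin links turn sliding into bending, and radial spokes and the central pair set the beat. In the brain, motile cilia stand in tufts on the ependymal cells that line the ventricles, where they move cerebrospinal fluid, and also on the epithelial cells of the choroid plexus, the tissue that secretes this fluid. The forkhead factor Foxj1 and the RFX factors drive the transcription of many axonemal genes.

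The samples were total RNA of hippocampi from female C57BL6/J mice aged 8 weeks that had spent 4 weeks in an enriched environment, a cage with added space and objects. A control antibody had been given to the control group (n = 4) and an antibody against CD4, a surface protein of helper T cells, to the anti-CD4 group (n = 4). The question, from the study's title, is how depletion of these T cells bears on hippocampal gene expression under enrichment. Whether each sample was a separate animal is not in the labels, and the tests read only the variation among these 8 samples, some of which may be technical. All values below are log2 signals minus the array's own 75th percentile, differences are anti-CD4 minus control, and each level belongs to its own probe and is not set against that of another gene. The share of probes above background was 51.1% to 54.3% per array, 0 probes were saturated, and the number of arrays limits the precision. The arrays of each group filled a row of the slide of their own, so row and group cannot be told apart. All 14 measured markers of hippocampal neurons passed the filter and were above background on every array. All 16 genes listed for ependyma outside the axoneme (such as S100b and Vim) also passed the filter. How specific these 16 are to ependyma was not tested.

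None of the 41 measured motile cilia genes passed the test for a difference between the groups after adjustment over all 23596 rows (limma, Benjamini-Hochberg, adjusted p under 0.05), and their smallest adjusted p was 0.228. The background was the same: 0 of 23596 rows passed, which is 0%. At an unadjusted p under 0.05 there were 4 cilia genes, 9.76% of those measured, against 3066 rows, 13.0%. They were Dnahc5 and Tppp3, higher in the anti-CD4 group, and Iqcg and Spef2, lower there. In 1 cilia gene, Dnahc5, the values of the groups did not overlap, which was so in 8.19% of all rows. Each of these shares of the cilia genes was at or under that of the array as a whole.

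By sign alone, 25 of the 41 genes were higher in the anti-CD4 group (61.0%, against 51.8% of all rows). Their median difference was 0.072 on the log2 scale, against 0.0068 over all rows, and single differences ran from -0.48 for Dnahc9 to 0.38 for Dnahc5. The median depended on single arrays: leaving out anti-CD4 replicate 3 gave -0.0021, with 20 genes higher, and leaving out control replicate 3 gave 0.013, with 23 higher. Leaving out control replicate 1 gave 0.12, with 27 higher, and leaving out anti-CD4 replicate 4 gave 0.11, with 32 higher. With the log2 signal of the choroid plexus gene Ttr as a term of the fit, the median was 0.00076, with 21 higher. Each difference below is followed by its standard error (SE) from limma. In bulk tissue, fewer cells of a type and less RNA per cell cannot be told apart.

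**Figure D1:**
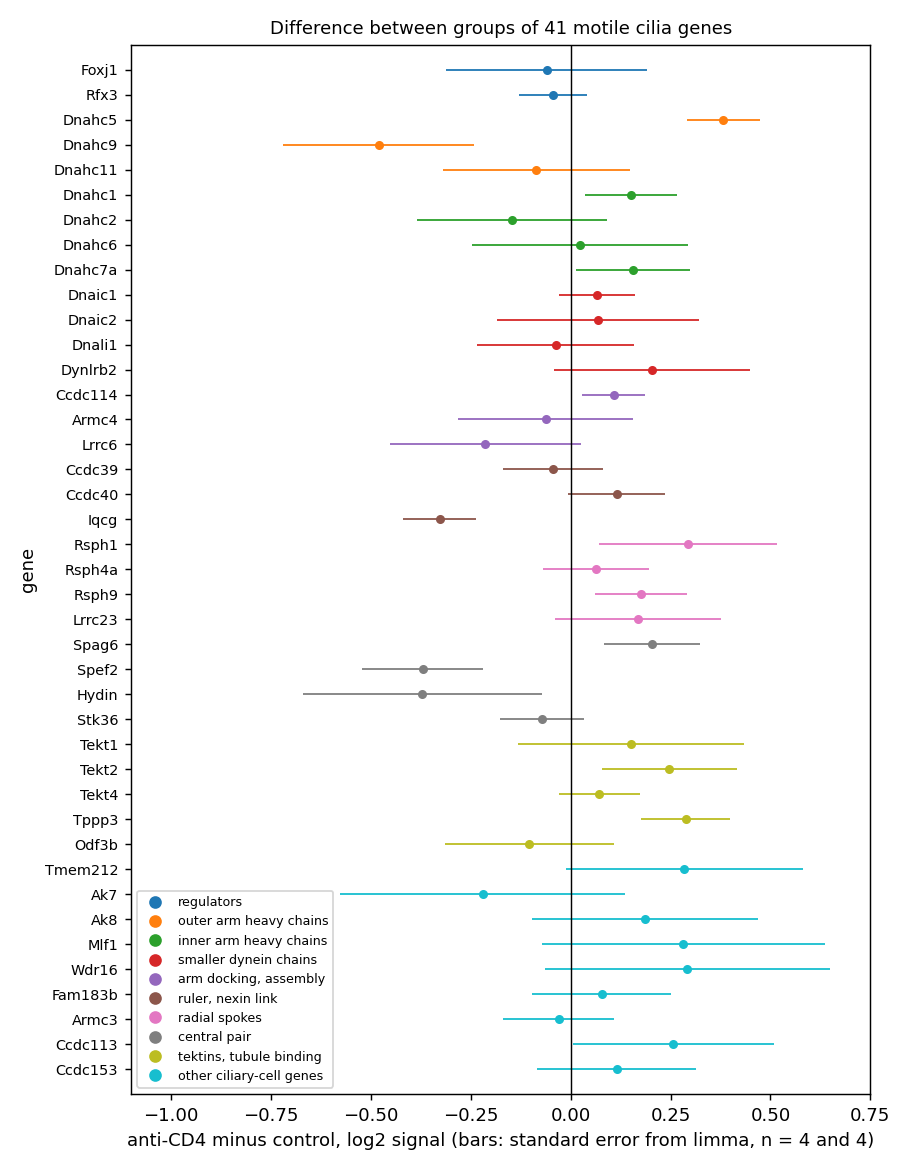
Difference between groups (anti-CD4 minus control, log2 signal, x axis) of the 41 measured motile cilia genes (y axis), coloured by role; points are means of 4 against 4 arrays and bars the standard error from limma. Points lie on both sides of 0, from -0.48 for Dnahc9 to 0.38 for Dnahc5, and most bars reach or come near 0.

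The regulators came first in order of role. Foxj1, the forkhead factor that drives many axonemal genes, is read by a probe at chromosome 11, bases 116192214 to 116192273 (mm9). Its log2 signal was 0.11, -0.21, -0.54 and -0.074 across control replicates 1 to 4 and -0.45, -0.58, 0.54 and -0.47 across anti-CD4 replicates 1 to 4. The groups overlapped, and anti-CD4 replicate 3 stood above the 7 other arrays while the other anti-CD4 arrays lay low. The difference was -0.060 ± 0.25 (SE, adjusted p = 0.937), and its sign turned when control replicate 1 or anti-CD4 replicate 1, 2 or 4 was left out. Rfx3, an RFX factor of ciliary genes, had values of -1.16, -0.95, -0.91 and -1.18 across control replicates 1 to 4 and -1.02, -1.22, -1.07 and -1.08 across anti-CD4 replicates 1 to 4. It varied little, over 0.30 log2 units across all arrays, with control replicate 3 highest, and the groups overlapped with a difference of -0.045 ± 0.085 (SE, adjusted p = 0.848). Rfx2, its paralog, cleared background on 1 control array and 0 anti-CD4 arrays, with values of -4.24, -4.70, -5.23 and -4.54 across control replicates 1 to 4 and -4.66, -4.64, -5.13 and -6.29 across anti-CD4 replicates 1 to 4. It was not tested and no fold is given.

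RFX factors bind the X-box, which is made of 2 inverted copies of a short core. The promoters of the genes were searched for it, since RFX factors are among them. RefSeq windows of GRCm38.p6, from 250 bases before to 50 after the start, were at hand for 39 of the 45 genes. Those without were Foxj1, Armc4, Lrrc6, Rsph1, Rsph4a and Tppp3. On both strands the RFX core GTTGCC occurred in 19 of the 39 (48.7%), against 14.1% of 27025 genes. The X-box consensus, searched with the cores 0 to 3 bases apart and overlapping the core count where a core is GTTGCC, occurred in 8 (20.5%), against 1.75% of genes. The forkhead core TGTTTAC occurred in 2, Ak7 and Mlf1 (5.13%, against 4.05%). Such matches are letters in a window, not shown sites.

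The X-box matches that lie wholly before the start are shown because, of the 3 motifs searched, the X-box is the longest and the letters did not enter the choice of genes, although most of the 39 windows do not hold it; the match is in capitals, read on the gene's strand, and the window ends at the start where it is near.
Dnaic1: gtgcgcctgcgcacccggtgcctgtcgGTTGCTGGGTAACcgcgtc
Dnaic2: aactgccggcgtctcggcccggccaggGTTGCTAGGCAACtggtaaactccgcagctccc
Dynlrb2: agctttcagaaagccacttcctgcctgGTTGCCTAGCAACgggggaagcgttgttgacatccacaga
Lrrc23: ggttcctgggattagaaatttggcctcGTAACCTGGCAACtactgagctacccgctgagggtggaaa
Spag16: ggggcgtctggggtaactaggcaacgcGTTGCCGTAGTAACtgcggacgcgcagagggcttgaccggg
Hydin: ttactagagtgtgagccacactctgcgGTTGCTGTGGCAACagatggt
Tekt2: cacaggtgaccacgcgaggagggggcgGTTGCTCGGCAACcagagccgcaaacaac
These windows are chr4:41569748-41569793 on the plus strand for Dnaic1, chr11:114727359-114727418 on the plus strand for Dnaic2, chr8:116504937-116505003 on the plus strand for Dynlrb2, chr6:124779852-124779918 on the minus strand for Lrrc23, chr1:69826840-69826907 on the plus strand for Spag16, chr8:110266929-110266976 on the plus strand for Hydin and chr4:126325689-126325744 on the minus strand for Tekt2 (GRCm38.p6). The matches began 19 bases before the start in Dnaic1 and 164 before it in Lrrc23, the nearest and the farthest of the set. Tekt2 has another annotated start, and the same match lies 71 bases before that start. The match in Spef2 reaches past the start and is not printed.

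Of the outer arm heavy chains, the motors of the main power stroke, Dnahc5 is the gene whose loss is a common cause of primary ciliary dyskinesia. Its probe is at chromosome 15, bases 28401496 to 28401555 (mm9), and its log2 signal was -1.84, -1.72, -1.80 and -1.95 across control replicates 1 to 4 and -1.28, -1.47, -1.39 and -1.64 across anti-CD4 replicates 1 to 4. Every anti-CD4 array was above every control array, with the smallest gap between anti-CD4 replicate 4 and control replicate 2. The means were -1.83 ± 0.097 (SD, n = 4) in controls and -1.45 ± 0.15 (SD, n = 4) after anti-CD4. This difference of 0.38 ± 0.091 (SE), or 1.30-fold, did not pass the threshold (limma adjusted p = 0.228). Dnahc9, a partner heavy chain of the outer arm, was lower on average after anti-CD4, with -0.44, -0.52, -0.41 and -1.02 across control replicates 1 to 4 and -0.73, -1.19, -0.68 and -1.71 across anti-CD4 replicates 1 to 4. Anti-CD4 replicate 4 was lowest and the groups overlapped, with a difference of -0.48 ± 0.24 (SE, adjusted p = 0.434). The Dnahc9 probe derives from a cDNA clone, and the probe of its RefSeq transcript was above background on no array. Dnahc11, an outer arm chain found in part of the axoneme, spanned -3.08 to -1.99 and differed by -0.086 ± 0.23. The 3 chains of the same arm therefore had 1 higher and 2 lower means.

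The inner arm heavy chains shape the bend. Dnahc1 gave -3.14, -3.03, -2.81 and -3.19 across control replicates 1 to 4 and -2.94, -2.72, -3.12 and -2.78 across anti-CD4 replicates 1 to 4, and its groups overlapped with a difference of 0.15 ± 0.12 (SE, adjusted p = 0.594). Dnahc6 gave 0.25, 0.13, -0.51 and -0.068 across control replicates 1 to 4 and -0.025, -0.40, 0.73 and -0.42 across anti-CD4 replicates 1 to 4. Anti-CD4 replicate 3 was its highest and control replicate 3 its lowest array, and the difference of 0.022 ± 0.27 turned negative without either of these arrays. Dnahc2 followed a similar order, between -1.43 in anti-CD4 replicate 4 and -0.41 in anti-CD4 replicate 3, and differed by -0.15 ± 0.24. Dnahc7a did not: anti-CD4 replicate 3 was its lowest array, at -0.58, and its difference was 0.16 ± 0.14. Its value is uncertain, because the near-identical Dnah7b can share its signal, the probe used derives from a cDNA clone, and the only other probe that passed correlated with it at 0.36. Dnahc12 was above background on 1 control and 2 anti-CD4 arrays and was not tested.

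The smaller dynein chains are Dnaic1 and Dnaic2, intermediate chains of the outer arm, Dnali1, a light intermediate chain of the inner arm, and Dynlrb2, a roadblock-type light chain. Dynlrb2, whose X-box is printed above, gave 1.34, 0.98, 0.56 and 1.21 across control replicates 1 to 4 and 1.03, 0.90, 1.90 and 1.08 across anti-CD4 replicates 1 to 4. Anti-CD4 replicate 3 was highest and control replicate 3 lowest, and the groups overlapped. Its difference was 0.20 ± 0.24 (SE, adjusted p = 0.748), and without anti-CD4 replicate 3 it was -0.021. Dnaic2 and Dnali1 were also highest in anti-CD4 replicate 3, at -1.09 and -0.26, and differed by 0.069 ± 0.25 and -0.038 ± 0.20. Dnaic1 had its highest value in control replicate 1 and differed by 0.067 ± 0.10.

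Docking and assembly genes act before the arms can beat. Ccdc114, of the complex that docks the outer arm, gave 0.38, 0.34, 0.44 and 0.64 across control replicates 1 to 4 and 0.54, 0.52, 0.53 and 0.65 across anti-CD4 replicates 1 to 4, and its groups overlapped with a difference of 0.11 ± 0.079 (SE, adjusted p = 0.582). Its probe also derives from a cDNA clone, and that of the RefSeq transcript was above background on 1 array. Lrrc6, which assembles arms in the cytoplasm, gave -2.72, -2.64, -2.82 and -1.73 across control replicates 1 to 4 and -2.84, -2.50, -2.95 and -2.48 across anti-CD4 replicates 1 to 4. Control replicate 4 alone stood high, and the difference of -0.21 ± 0.24 (SE, adjusted p = 0.727) became 0.035 without it. Armc4, needed to place outer arms, ran from -2.45 to -1.53 and differed by -0.063 ± 0.22.

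Ccdc39 and Ccdc40 form the ruler that spaces arms and spokes along the axoneme, and Iqcg belongs to the nexin link. Ccdc40 gave -2.27, -2.38, -2.52 and -2.40 across control replicates 1 to 4 and -2.27, -2.30, -1.98 and -2.57 across anti-CD4 replicates 1 to 4, with anti-CD4 replicate 3 highest, overlapping groups and a difference of 0.12 ± 0.12 (SE, adjusted p = 0.706) that was 0.015 without that array. Ccdc39, its partner, differed by -0.044 ± 0.13. Iqcg gave -0.38, -0.69, -0.39 and -0.51 across control replicates 1 to 4 and -0.91, -0.90, -0.68 and -0.79 across anti-CD4 replicates 1 to 4. The anti-CD4 arrays were low, but control replicate 2 lay just below anti-CD4 replicate 3, so the groups overlapped. The means were -0.49 ± 0.14 and -0.82 ± 0.11 (SD, n = 4 each), 1.26-fold lower in the anti-CD4 group, and the difference of -0.33 ± 0.091 (SE) did not pass the threshold (limma adjusted p = 0.250).

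All 4 radial spoke genes had higher means in the anti-CD4 group, as did 51.8% of all rows, and none of the 4 passed the test. Rsph1, Rsph4a and Rsph9 encode proteins of the spoke head. Rsph1 gave 0.42, -0.28, -0.34 and 0.27 across control replicates 1 to 4 and 0.046, 0.24, 0.81 and 0.15 across anti-CD4 replicates 1 to 4. Anti-CD4 replicate 3 was highest and control replicates 2 and 3 were lowest, and the difference was 0.29 ± 0.22 (SE, adjusted p = 0.593). Rsph9 gave 3.14, 2.82, 2.91 and 3.19 across control replicates 1 to 4 and 2.98, 3.17, 3.39 and 3.22 across anti-CD4 replicates 1 to 4, again with control replicates 2 and 3 lowest, and differed by 0.18 ± 0.11 (SE, adjusted p = 0.543). Rsph4a gave -1.76, -2.07, -2.05 and -1.71 across control replicates 1 to 4 and -2.16, -1.67, -1.75 and -1.75 across anti-CD4 replicates 1 to 4. Here 3 arrays lay low, control replicates 2 and 3 and anti-CD4 replicate 1, and the difference was 0.063 ± 0.13 (SE, adjusted p = 0.862). A second Rsph4a probe, on the same transcript, had a difference of 0.50 ± 0.13 (SE, limma adjusted p = 0.236 over all tested probes), and correlated with the first at 0.42 over the 8 arrays, so the probes of this gene disagree. Lrrc23, a further spoke protein, ran from -0.89 in control replicate 3 to 0.19 in anti-CD4 replicate 3 and differed by 0.17 ± 0.21.

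The central pair genes did not share a direction. Spef2, a protein of a central pair projection, gave 2.68, 3.06, 2.69 and 2.63 across control replicates 1 to 4 and 2.31, 2.55, 2.04 and 2.67 across anti-CD4 replicates 1 to 4. Control replicate 2 was highest, anti-CD4 replicate 3 lowest, and the groups overlapped. The means were 2.76 ± 0.20 and 2.39 ± 0.28 (SD, n = 4 each), and the difference of -0.37 ± 0.15 (SE) did not pass the threshold (limma adjusted p = 0.357). A second Spef2 probe had a difference of -0.25 and correlated with the first at -0.20. Hydin, whose loss causes hydrocephalus in mice, gave -2.63, -2.47, -1.47 and -3.04 across control replicates 1 to 4 and -2.79, -2.84, -2.47 and -3.00 across anti-CD4 replicates 1 to 4. Control replicate 3 alone was high, and the difference of -0.37 ± 0.30 (SE, adjusted p = 0.616) was -0.060 without it. The other Hydin probes, including another of the same RefSeq transcript, were above background on no array. Spag6, an armadillo-repeat protein with a close paralog that can share its signal, differed by 0.20 ± 0.12. Stk36, a kinase needed to build the central pair in mice, differed by -0.071 ± 0.11. Spag16 was above background on 1 array of each group and Spag17 on none, so neither was tested.

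Tektins are filaments inside the doublet walls. Tekt1 gave 1.23, 0.37, 0.17 and 0.93 across control replicates 1 to 4 and 0.41, 0.64, 1.45 and 0.80 across anti-CD4 replicates 1 to 4. Anti-CD4 replicate 3 and control replicate 1 were highest, control replicates 2 and 3 and anti-CD4 replicate 1 lowest, and the groups overlapped with a difference of 0.15 ± 0.28 (SE, adjusted p = 0.843) that turned negative without control replicate 3 or anti-CD4 replicate 3. Its 2 probes agreed, with a correlation of 0.99. Tppp3, a tubulin-bundling protein also made by other cells, gave 1.54, 1.27, 1.66 and 1.32 across control replicates 1 to 4 and 1.93, 1.71, 1.72 and 1.57 across anti-CD4 replicates 1 to 4. The anti-CD4 arrays were mostly above the controls, although control replicate 3 exceeded anti-CD4 replicate 4. The means were 1.45 ± 0.18 and 1.73 ± 0.15 (SD, n = 4 each), 1.22-fold higher in the anti-CD4 group without passing the threshold (limma adjusted p = 0.341). Tekt2, above background on 3 control and 4 anti-CD4 arrays, differed by 0.25 ± 0.17, Tekt4 by 0.072 ± 0.10 and Odf3b, related to an outer dense fibre protein, by -0.10 ± 0.21.

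Among the 9 further genes of ciliated cells, 7 had higher means in the anti-CD4 group (77.8%, against 51.8% of all rows). None of the 9 had an unadjusted p under 0.05. Mlf1 gave -0.93, -1.61, -2.32 and -1.23 across control replicates 1 to 4 and -1.70, -1.44, -0.38 and -1.42 across anti-CD4 replicates 1 to 4, the widest range of any cilia gene that passed the filter, at 1.93. Anti-CD4 replicate 3 was highest and control replicate 3 lowest, the groups overlapped, and the difference was 0.28 ± 0.35 (SE, adjusted p = 0.761). Ak8, an adenylate kinase of the axoneme, gave -0.96, -1.91, -2.08 and -1.22 across control replicates 1 to 4 and -1.90, -1.33, -1.06 and -1.13 across anti-CD4 replicates 1 to 4. Control replicates 2 and 3 and anti-CD4 replicate 1 lay apart from the 5 other arrays, with a difference between groups of 0.19 ± 0.28 (SE, adjusted p = 0.804) that was 0.0060 without control replicate 3. Ccdc113, a coiled-coil protein of cilia, gave 0.37, -0.57, -0.59 and 0.15 across control replicates 1 to 4 and -0.30, 0.047, 0.47 and 0.17 across anti-CD4 replicates 1 to 4, with the same 3 arrays low and a difference of 0.26 ± 0.25 (SE, adjusted p = 0.685). Fam183b gave 1.82, 2.38, 2.32 and 1.88 across control replicates 1 to 4 and 2.54, 1.93, 2.21 and 2.03 across anti-CD4 replicates 1 to 4. In it those 3 arrays were the highest, and the difference was 0.078 ± 0.17 (SE, adjusted p = 0.870). Ak7, a second adenylate kinase, was above background on 2 arrays of each group, with -4.63, -3.93, -4.06 and -4.83 across control replicates 1 to 4 and -4.08, -4.68, -4.01 and -5.56 across anti-CD4 replicates 1 to 4. Its lowest array, anti-CD4 replicate 4, set the sign of the difference of -0.22 ± 0.36. Tmem212, an ependymal membrane protein, differed by 0.28 ± 0.30, Wdr16 by 0.29 ± 0.36, Armc3 by -0.030 ± 0.14 and Ccdc153 by 0.12 ± 0.20.

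The arrays differed far more in choroid plexus signal than in cilia signal. Ttr, the thyroid hormone carrier that marks choroid plexus epithelium, read 8.16, 2.72, -0.46 and 8.26 on the log2 scale across control replicates 1 to 4, and 1.22, 7.60, 8.48 and 7.75 across anti-CD4 replicates 1 to 4. It was thus high on 5 arrays and low on control replicates 2 and 3 and anti-CD4 replicate 1, with low arrays in both groups. A list of 30 choroid plexus genes, Ttr among them, had Cldn1 alone not measured. Its summed signal was 40.1 to 559 in controls and 50.5 to 702 in the anti-CD4 group, relative to the 75th percentile. The sum weighs most the probes that read highest, such as Ttr on the high arrays. Of the 29 measured genes 28, counting Ttr itself, correlated with Ttr at over 0.8. On the 3 low arrays 19 to 22 of the 29 remained above background, against all 29 on each of the others. The summed signal of the 41 cilia genes ran from 44.4 to 51.8 in controls and from 46.4 to 57.7 in the anti-CD4 group. This sum too weighs most the probes that read highest, such as those of Rsph9 and Spef2. On every array 39 to 41 of the 41 genes were above background.

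A subset of the cilia genes followed Ttr. Pearson's r with Ttr over the 8 arrays exceeded 0.8 in 8 of 41 (19.5%), against 1.77% of all rows, and the median r was 0.34, against -0.15. The arrays fall apart into high and low Ttr and share their scaling, so r is a description and no p is given. The 8 were Ak8 (r = 0.97, Spearman's rho = 0.86), Rsph4a (r = 0.93, rho = 0.57), Ccdc113 (r = 0.92, rho = 0.90), Tekt1 (r = 0.86, rho = 0.95), Rsph9 (r = 0.85), Wdr16 (r = 0.83), Mlf1 (r = 0.82) and Rsph1 (r = 0.81). They include all 3 measured spoke head genes. Wdr16, an axonemal WD-repeat protein, gave 0.44, -1.11, -0.73 and 0.18 across control replicates 1 to 4 and -0.49, 0.39, 0.26 and -0.21 across anti-CD4 replicates 1 to 4, again low in the 3 arrays with low Ttr.

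The size of this movement was small beside that of Ttr. Ak8 spanned 1.13 log2 units over the arrays and Rsph4a 0.49, where Ttr went from -0.46 to 8.48. Without control replicate 3 and anti-CD4 replicate 1, the arrays farthest from the median of Ttr, r was 0.95 for Ak8, 0.94 for Rsph4a, 0.95 for Ccdc113 and 0.92 for Rsph9. It was 0.76 for Tekt1 and 0.58 for Mlf1. In all, 17.1% of the cilia genes were then over 0.8, against 6.56% of all rows, and control replicate 2 was the only array left with low Ttr. The median r of the cilia genes was 0.063 without control replicate 3 alone. The second probe of Rsph4a had r = 0.46, lower than the first, and that of Rsph1 had r = 0.79.

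**Figure D2:**
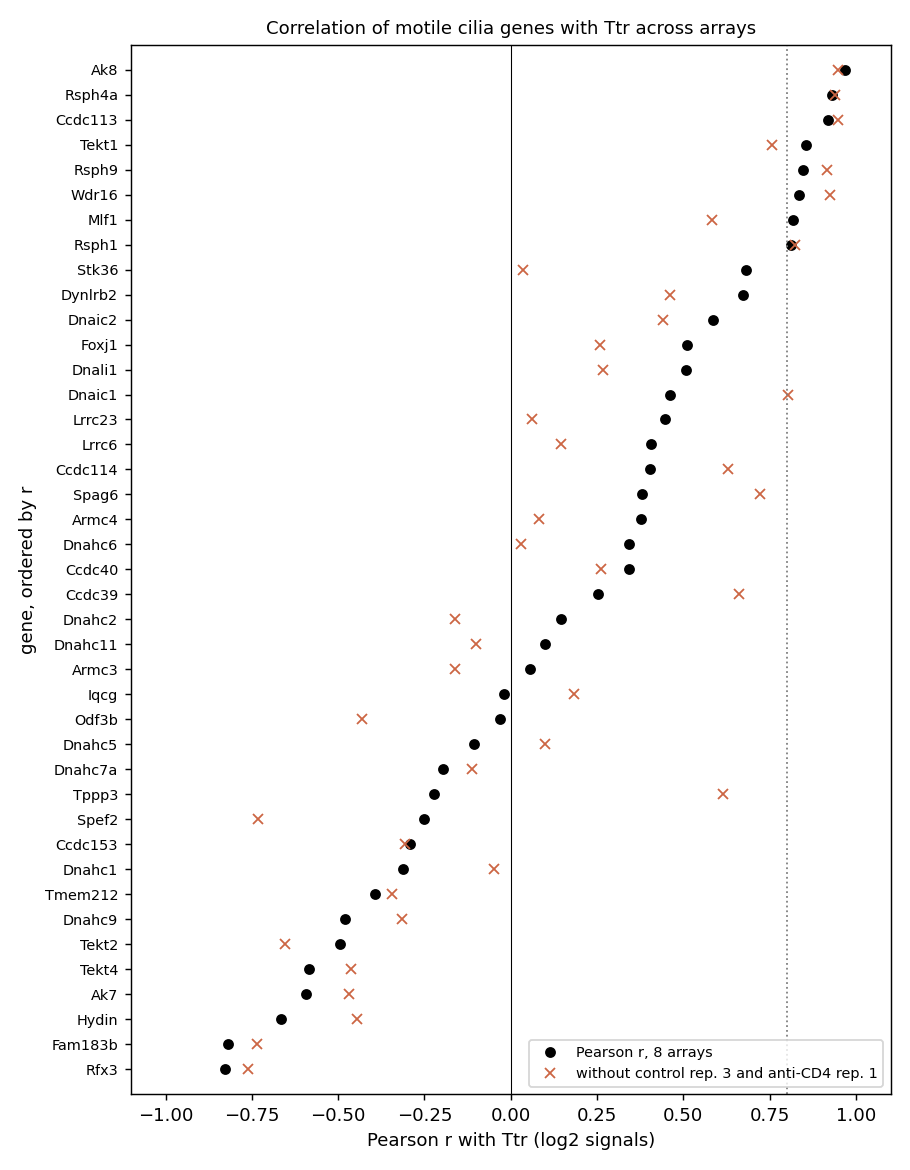
Pearson's r with Ttr (x axis) of each measured motile cilia gene (y axis, ordered by r) over 8 arrays (filled points) and without control replicate 3 and anti-CD4 replicate 1 (crosses); the dotted line marks 0.8. The genes run from 0.97 for Ak8 to -0.83 for Rfx3, and 8 lie beyond the line, with Stk36 next at 0.68.

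Other cilia genes went against Ttr or ignored it. In 5 of 41 (12.2%, against 19.6% of all rows) r was under -0.5: Rfx3 (r = -0.83, rho = -0.60), Fam183b (r = -0.82, rho = -0.64), Hydin (r = -0.67, rho = -0.31), Ak7 (r = -0.59, rho = -0.26) and Tekt4 (r = -0.58). Tekt2 lay just outside, at -0.50. Fam183b kept r = -0.74 and Rfx3 r = -0.76 without the 2 arrays farthest in Ttr. The other Rfx3 probes had r = -0.54 and r = -0.46. Foxj1 had r = 0.51, and the 7 measured dynein heavy chains lay between -0.48 for Dnahc9 and 0.34 for Dnahc6. Genes of the same structure were therefore found at both ends, as with Tekt1 and Tekt4.

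**Figure D3:**
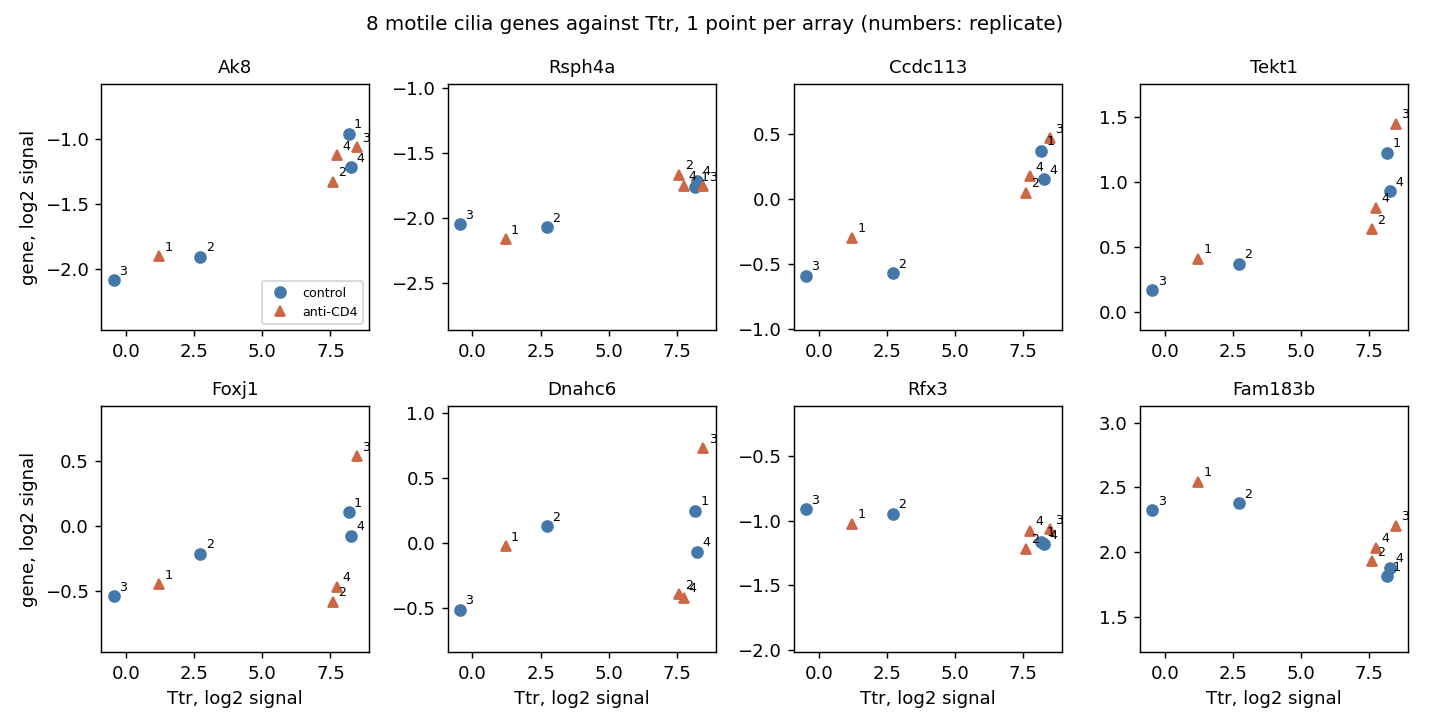
Log2 signal of 8 motile cilia genes (y axes, each spanning the same number of log2 units) against the log2 signal of Ttr (x axis), with 1 point per array, numbered by replicate; circles are control and triangles anti-CD4. Ak8, Rsph4a, Ccdc113 and Tekt1 are lowest in control replicates 2 and 3 and anti-CD4 replicate 1, Foxj1 and Dnahc6 are highest in anti-CD4 replicate 3, and Fam183b is high where Ttr is low.

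Promoter matches were found at both ends of the range of r. Among the genes with r over 0.8, 6 had a promoter window, of which 3 held the RFX core and 0 the X-box consensus. Of the 5 with r under -0.5, 4 held the core and 1 the X-box. Of the 24 measured genes between these limits with a window, 10 held the core and 6 the X-box. The cores of Tekt1 and Mlf1, which followed Ttr, and of Fam183b, which went against it, are shown for comparison, with 1 core of each gene in capitals. In Tekt1 the core in capitals is on the opposite strand, as its reverse complement, and a second core, on the gene's own strand, follows in lower case.
Tekt1: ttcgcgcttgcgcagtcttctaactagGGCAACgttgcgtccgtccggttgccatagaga
Mlf1: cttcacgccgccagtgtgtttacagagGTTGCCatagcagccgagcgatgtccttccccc
Fam183b: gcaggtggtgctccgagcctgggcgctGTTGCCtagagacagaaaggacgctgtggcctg
They lie at chr11:72361885-72361944 on the minus strand for Tekt1, chr3:67373965-67374024 on the plus strand for Mlf1 and chr11:58801995-58802054 on the minus strand for Fam183b (GRCm38.p6), with the core beginning 35, 105 and 67 bases before the start. The second core of Tekt1 began 15 bases before the start, and Fam183b held another, 16 bases before it and outside the stretch printed.

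A different array stood out for the cilia genes as a whole. Anti-CD4 replicate 3 was the highest of the 8 arrays in 18 of 41 genes (43.9%), against 11.1% of all rows. Under the other scalings, background correction, probe rule and filter tried, and in the authors' table, which were added after seeing the data, it was highest in 18 to 21. Centred on each gene's own mean, the mean of the 41 genes was 0.13, -0.031, -0.16 and -0.025 across control replicates 1 to 4 and 0.0036, -0.087, 0.30 and -0.13 across anti-CD4 replicates 1 to 4. Anti-CD4 replicate 3 was highest and control replicate 3 lowest, and the groups overlapped. The 18 include Foxj1, Dnahc2, Dnahc6, Dnahc11, Dnaic2, Dnali1, Dynlrb2 and Tekt1. The same array had the highest Ttr and the highest summed choroid plexus signal, at 702, a sum that includes Ttr. That sum was 559 in control replicate 4, where the cilia mean was -0.025, and 543 in control replicate 1, where the cilia mean was 0.13, the second highest. It was 381 in anti-CD4 replicate 4 and 355 in anti-CD4 replicate 2, where the cilia means were -0.13 and -0.087. The part of choroid plexus signal in these values was not tested.

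**Figure D4:**
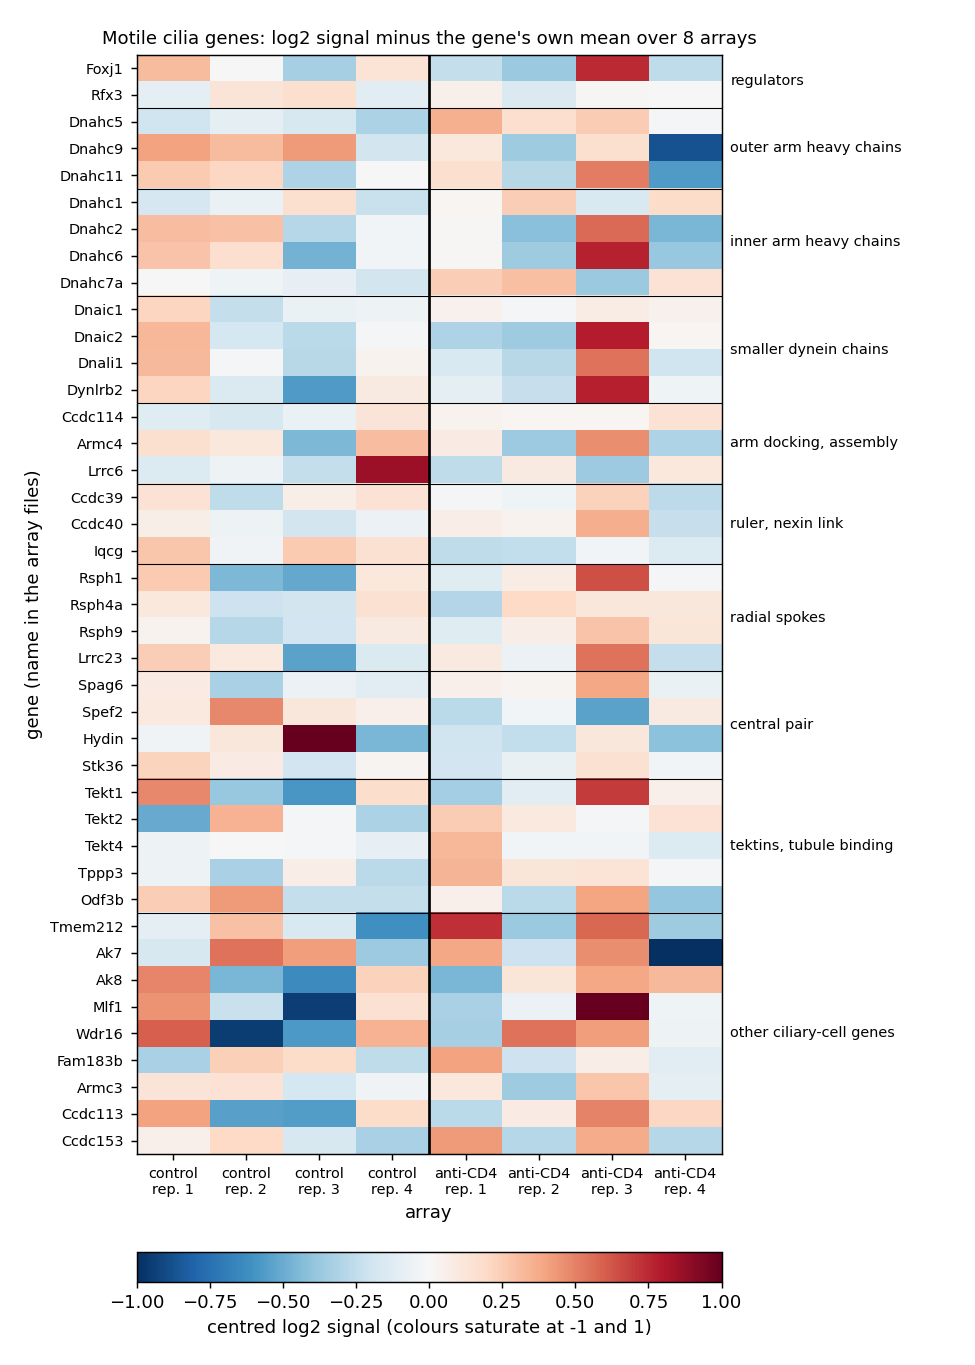
Log2 signal of the 41 measured motile cilia genes (rows, in order of role) on the 8 arrays (columns, the line dividing control from anti-CD4), each minus the gene's own mean; red is higher, blue lower, and colours saturate at -1 and 1. Anti-CD4 replicate 3 is the highest array for 18 genes, including Foxj1, Dynlrb2 and Mlf1, while the 3 other anti-CD4 arrays are mostly near or under the mean.

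Of the 41 genes, 13 correlated at over 0.8 with the mean of the cilia genes, which they form part of, and 0.890% of all rows did. A further list of 64 axonemal genes, none of them among the 45, had the same order of arrays at its ends, with a centred mean of 0.29 on anti-CD4 replicate 3 at the top and -0.15 on control replicate 3 at the bottom. Of its 50 measured genes 34 were higher in the anti-CD4 group (68%, against 51.8% of all rows), with a median difference of 0.061. An unadjusted p under 0.05 was found in 2 (4%, against 13.0% of all rows). Those were Cfap57 (difference 0.52 ± 0.13, SE, limma adjusted p = 0.240) and Drc1 of the nexin link (0.29 ± 0.12, SE, limma adjusted p = 0.353), followed by Dnah7b (0.27 ± 0.12, SE, limma adjusted p = 0.402). In 4 of the 50 r with Ttr was over 0.8 (8%, against 1.77% of all rows). In 6 it was under -0.5 (12%, against 19.6%).

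Genes of the primary cilium and of intraflagellar transport, which neurons and other cells with a primary cilium also use, varied less in their mean. Their centred mean over 49 measured genes of 51 stayed between -0.040 and 0.031 on all arrays. Of the 49, 30 were higher in the anti-CD4 group (61.2%, against 51.8% of all rows). For 8 the unadjusted p was under 0.05 (16.3%, against 13.0% of all rows). The smallest p-values were those of Bbs12 (difference -0.42, adjusted p = 0.273), Kif17 (0.23, adjusted p = 0.278) and Dync2h1 (-0.19, adjusted p = 0.305), all from limma. In none of the 49 was r with Ttr over 0.8. Of 15 measured genes of cytoplasmic dynein and dynactin 10 were higher (66.7%). Of these 15, 1 had an unadjusted p under 0.05 (6.67%), Dctn3 (difference 0.21, limma adjusted p = 0.315). Dynll2 (0.21) and Dync1li2 (-0.090) followed. Of 11 measured genes among 16 other regulators of multiciliated cells 6 were higher (54.5%) and 0 had an unadjusted p under 0.05. The smallest p-values there were those of Rfx1 (-0.19, limma adjusted p = 0.395), Cep152 (-0.24) and Trp73 (0.14).

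Markers of neighbouring cell types were set beside these values. Of the 16 genes listed for ependyma without an axonemal role, 11 were higher in the anti-CD4 group (68.8%, against 51.8% of all rows). An unadjusted p under 0.05 was found in 2 (12.5%, against 13.0% of all rows). These were Six3 (difference 1.63 ± 0.49, SE, limma adjusted p = 0.263) and Pax6 (0.26, limma adjusted p = 0.362), followed by S100b (0.15). Six3 was dim in controls, with a mean of -4.28, so the size of its difference is uncertain. On control replicates 2, 3 and 4, 15 of the 16 genes were above background. The summed signal of these genes was 170.2 to 174 in controls and 168 to 187 in the anti-CD4 group. That sum weighs most the probes that read highest, such as Dbi and S100b (control means 6.47 and 5.07), and is no measure of ependymal content. Only Pltp had r with Ttr over 0.8, at 0.94. Of 20 leptomeningeal and fibroblast genes 17 were higher (85%). The summed signal of the 20, weighed in the same way, was 47.3 to 68.8 in controls and 56.4 to 65.2 in the anti-CD4 group. Slc22a2 (0.88), Slc47a1 (0.47) and Aebp1 (0.25) had the smallest p-values, and Slc22a2 was dim in controls, with a mean of -4.74. Of the 20, 1 had an unadjusted p under 0.05 (5%) and none was called. Of the 14 neuron markers 6 were higher (42.9%) and 8 lower, and 4 had an unadjusted p under 0.05 (28.6%, against 13.0% of all rows). Calb1 (0.43) and Syt1 (0.18) were higher in the anti-CD4 group, and Neurod6 (-0.50) and Prox1 (-0.52) lower there. None of the 4 passed after adjustment (smallest limma adjusted p = 0.247). Of the 29 choroid plexus genes 28 were higher (96.6%, against 51.8% of all rows), with a median difference of 0.78. They moved together, with a median r with Ttr of 0.97. Ttr was low on control replicates 2 and 3 and on anti-CD4 replicate 1, so the 28 signs are not separate results. Of the 29, 0 had an unadjusted p under 0.05, and F5, Abca4 and Otx2 had the smallest p-values (limma adjusted p = 0.707, 0.709 and 0.713). The part of any of these cell types in the cilia values was not tested.

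**Figure D5:**
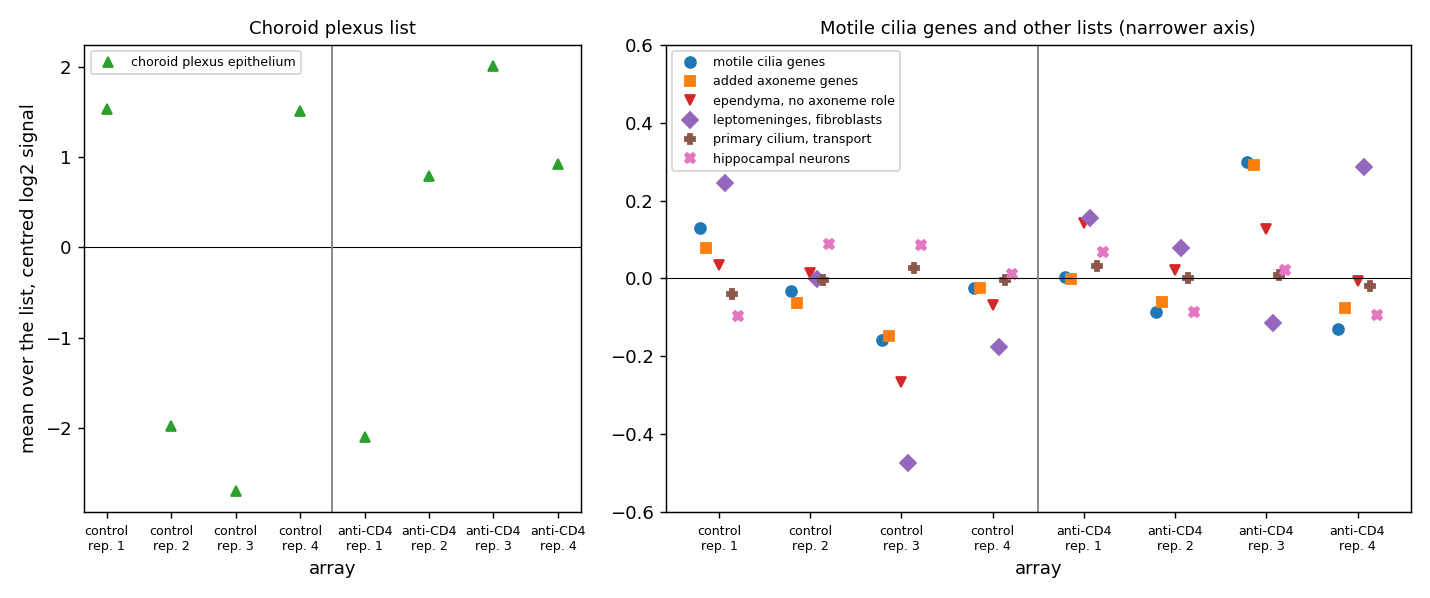
Mean over each list of the log2 signal centred on each gene's own mean (y axis) on the 8 arrays (x axis, line between control and anti-CD4), for choroid plexus genes on the left and for the motile cilia genes and other lists on a narrower axis on the right. The choroid plexus list is low on control replicates 2 and 3 and anti-CD4 replicate 1, whereas the motile cilia genes and the added axoneme genes reach 0.30 and 0.29 on anti-CD4 replicate 3 and stay within 0.16 of 0 elsewhere.

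Outside all lists, the named genes most like the mean of the cilia genes over the 8 arrays were Zkscan3 (r = 0.96), Trp53inp1 (r = 0.95), Diablo (r = 0.94), Ttc12 (r = 0.94), Sardh (r = 0.94), Stxbp3 (r = 0.94), Casp6 (r = 0.93) and Ganc (r = 0.93). Each was highest in anti-CD4 replicate 3, where the cilia mean that they were picked to follow was also highest. Without that array and control replicate 1, the arrays farthest from the median of the cilia mean, r ran from 0.59 for Ttc12 to 0.82 for Ganc. Their differences between groups ran from -0.055 for Casp6 to 0.19 for Ttc12, and none passed the threshold.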

How the data were processed

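Total RNA of 8 hippocampal samples, labelled with Cy3, was read on 1-colour Agilent arrays of design 028005, 4 per group as the sample titles give them. Spot intensity values came from the deposited scanner output of Feature Extraction 10.7.3.1. Per the file headers, that software had corrected each intensity for background and for trends over the array, without scaling arrays to each other. The authors' deposited table holds log2 values of the same 55681 probes and served as an alternative; the submitters' processing notes name limma, and how the table was otherwise made is not given in the sources used here.

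Control spots were left out, spots of a probe averaged, and the 75th percentile of each array subtracted from its log2 processed signals. Probes well above background on at least 4 of 8 arrays were tested (29406), and the brightest stood for its gene, which left 23596 rows. Names came from the files and a GRCm38.p6 symbol table; probe coordinates are mm9, from the files. The comparison of groups used limma 3.58.1 (lmFit, then eBayes) under R 4.3.3. Tests were two-sided, p-values were adjusted by Benjamini-Hochberg over all rows with a threshold of 0.05, and the script was tested on simulated data with known changes. The promoter sequences are RefSeq's. Alternatives changed the scaling, background correction, filter, probe rule, fit options, covariate, value table and arrays.

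The genes and all lists were chosen with earlier results of these data known. Values per array were given for the 3 regulators, for the gene of each role with the widest range and that with the smallest p, for the 4 smallest p overall and for the 4 highest and 4 lowest correlations with Ttr; Wdr16 was added after its values were seen. Of other lists up to 3 genes with the smallest p were named, and up to 8 named genes outside all lists with the highest correlation with the cilia mean; Pltp and Prox1 were named after their values were seen. The main fit did not pair samples by replicate number. Deviations of same-numbered arrays correlated between -0.45 and 0.30. No differently numbered arrays were set beside them, so these values cannot decide whether the numbers pair the samples.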

Additional observations from a re-analysis of the deposited data

Results flagged for a closer look

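In 6 of 86 groups of 4 arrays (6.98%; chance alone gives about 1 in 20) a single array lay far from the other 3 by Dixon's ratio. The Foxj1 signal of anti-CD4 replicate 3 was 0.54, where the other anti-CD4 arrays lay between -0.58 and -0.45. Dnali1, of the inner arm, was -0.26 on the same array, against -1.08 to -0.96 on the others. Ccdc114, of the docking complex, was 0.65 on anti-CD4 replicate 4, against 0.52 to 0.54. Lrrc6, which assembles dynein arms, was -1.73 on control replicate 4, against -2.82 to -2.64 on the other controls. Spef2, of the central pair, was 3.06 on control replicate 2, against 2.63 to 2.69. Ttr itself was 1.22 on anti-CD4 replicate 1, against 7.60 to 8.48 on the other anti-CD4 arrays. No explanation of these values was tested.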

How the results depend on the processing

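No cilia gene passed the adjusted threshold under any of the 18 alternatives run, and 3 to 5 had an unadjusted p under 0.05. Over all rows limma called 2 with the authors' table, 2 with the trend and robust options, and 0 to 11 when 1 array was left out, the 11 arising without anti-CD4 replicate 3. The median correlation of the cilia genes with Ttr ran from 0.063, without control replicate 3, to 0.39, without anti-CD4 replicate 4. With Ttr as a term of the fit the differences of Dnahc6, Rsph4a and Tekt1 turned to -0.041, -0.015 and -0.012. With 1 array left out at a time, the difference ran from -0.32 to 0.054 for Foxj1, from -0.088 to 0.00074 for Rfx3, from -0.23 to 0.15 for Dnahc6, from -0.021 to 0.31 for Dynlrb2, from -0.33 to 0.035 for Lrrc6, from -0.056 to 0.34 for Tekt1, from -0.41 to 0.11 for Ak7, from -0.0021 to 0.48 for Mlf1 and from -0.043 to 0.17 for Fam183b, all of which changed sign. Without a change of sign it came near 0 for Hydin (-0.58 to -0.060), Ak8 (0.0060 to 0.38), Ccdc40 (0.015 to 0.21) and Rsph4a (0.0057 to 0.17). The cause was not tested. The replicate block, whose numbers may not pair the samples, gave 0 calls over all rows and 5 cilia genes at an unadjusted p under 0.05. It moved no count by over 1.5 times. Dim probes limit Rfx2, Dnahc12, Spag16, Spag17 and Ak7, which were near background. Among the genes of other lists, Six3 and Slc22a2 were also dim in controls, with means of -4.28 and -4.74.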
